A study of Mus musculus with 21 samples.

Results

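The D-type cyclins Ccnd1, Ccnd2 and Ccnd3 and their kinases Cdk4 and Cdk6 were followed across the libraries of 1 mouse embryonic stem cell series. The members were the 5 genes of that name among 31053 listed mouse Ensembl genes, and all 5 passed the filter on low counts that left 10643 genes for testing. The series held 21 messenger RNA libraries of E14Tg2a cells, a male line on a 129 background. In every group the cells carried GFPd2, a destabilised green fluorescent protein, knocked into a single allele of Rex1, so each group is the same engineered line. The basal medium was NDiff227 throughout. Its supplements were CHIR99021 (CH), which inhibits the kinase GSK3 and so raises Wnt/beta-catenin signalling, PD0325901 (PD), which inhibits MEK, the kinase upstream of ERK, and the cytokine LIF. The name 2i commonly stands for CH and PD together. The labels gave 7 groups of 3 replicates: 2i+LIF PO, 2i+LIF LP, CH+LIF LP, LIF LP, 2i+LIF HP, CH+LIF HP and LIF HP. The design named zero passage, 1 month and 2 months of culture. PO was read as zero passage because it occurred in 2i+LIF alone, while the labels did not say what lengths LP and HP stand for. The growth text, identical for all samples, described drugs given and withdrawn in turn at successive passages, and did not say in which phase a sample was taken. The labels did not say whether replicates were separate cultures, so p-values measure the spread between these samples only.

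D-type cyclins are the regulatory subunits that bind CDK4 or CDK6 in G1 phase. The active kinase phosphorylates the retinoblastoma protein and its relatives, which releases E2F factors and lets the genes of DNA replication be transcribed. Mitogen signalling through ERK and Wnt signalling are both known to raise cyclin D1, and GSK3 is known for promoting its export and degradation. Mouse embryonic stem cells are known for a short G1 phase and for low levels of D-type cyclins relative to differentiating cells, and the INK4 and CIP/KIP proteins restrain these kinases.

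Library depth was 1132126 to 3783043 gene counts with a median of 1763531, and a count of 0 allows up to 3 counts (counting error only). The 10 embryonic stem cell markers were all detected in every group, with a summed level of 1345 to 4319 CPM (counts-per-million on library sizes scaled by the TMM method) per library. The lowest sums were those of 2i+LIF HP, at 1345, 1386 and 2003 CPM, against at least 2071 CPM in every other library. A pair of libraries stood apart. In 2i+LIF PO replicate 1 mitochondrial genes held 39.1% of gene counts, against a median of 3.62% over the libraries. In 2i+LIF LP replicate 1 the RNA gene Gm42418 held 31.7%, against a median of 7.63%. The file names of the PO libraries carried another number than those of the other 18. That number may mark a sequencing run, and if so, run and PO cannot be told apart. The LIF HP libraries had the 3 highest ambiguous shares of all tallied counts, at 0.549, 0.573 and 0.683% (median over libraries 0.404%). Their shares not mapped to a unique place were 30.3, 35.4 and 34.3% (median 26.3%), and the part of either in the LIF HP values was not tested. Signalling genes also went against some media names. The 10 ERK target genes listed for the study summed to 253 to 344 CPM in LIF HP, where no MEK inhibitor is named, and to 791 and 843 CPM in 2i+LIF LP replicates 2 and 3, where it is. The first replicate of 2i+LIF LP held 365 CPM. The other groups with the inhibitor in their name were low, at 313 to 469 CPM in PO and 444 to 542 CPM in 2i+LIF HP, and those without it high, at 607 to 824 CPM in CH+LIF LP, LIF LP and CH+LIF HP. In LIF HP the ERK phosphatase Dusp6 was at 0, 1.23 and 0 CPM. Groups are therefore called by their labels alone, and a group name is not taken as a measured signalling state. In bulk RNA, fewer cells of a type and less RNA per cell cannot be told apart.

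Of 75 pairwise tests of the 5 members (edgeR quasi-likelihood test, adjusted over all genes tested in each contrast, threshold 0.05), 6 passed: 2 for Ccnd1, 3 for Ccnd2, 1 for Cdk6 and 0 for Ccnd3 and Cdk4. Over all genes, 5.03% of the tests in the 15 contrasts passed. The count was 16 when PO replicate 1 or 2i+LIF LP replicate 1 was left out (5.8% and 7.29% over all genes), and 11 in the absence of PO replicate 2 (4.07%). Without the pair of libraries that stood apart, 20 passed, 5 of them among the 6, and the share over all genes rose as well, to 9.4%. The 0 for Ccnd3 and Cdk4 became 3 and 1. At an unadjusted p under 0.05 there were 4 and 3, and DESeq2 called 2 for Ccnd3 and 0 for Cdk4. LIF HP differed most often: in LIF HP against 2i+LIF HP, against CH+LIF HP and against LIF LP, all 5 members had CPM ranges that did not overlap between the 2 groups. Over all genes tested the same held for 28%, 29.9% and 39.3%. These comparisons share the LIF HP libraries.

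Ccnd1 encodes cyclin D1, the D cyclin best known as a target of mitogen and Wnt signals. The gene (ENSMUSG00000070348) lies on chr7:144929931-144939925, minus strand, of GRCm38. By mean Ccnd1 was higher in the 2i+LIF groups and lowest in LIF HP. However, PO replicates 2 and 3 (87.3 and 110 CPM) lay within the LIF LP range of 65.7 to 117 CPM. Its level was 266, 219 and 169 CPM in 2i+LIF HP. CH+LIF HP held 99.3, 80.1 and 83.0 CPM and LIF HP 59.8, 54.8 and 50.5 CPM. The 3 groups did not overlap. In LIF HP against 2i+LIF HP Ccnd1 fell 3.96-fold (log2 fold change -1.98 ± 0.39 SE, edgeR adjusted p = 0.00428), where 3.78% of all genes tested passed. This call held in all 30 alternative settings and left-out libraries. Between CH+LIF HP and 2i+LIF HP the difference was -1.32 ± 0.38 on the log2 scale, which did not pass (edgeR adjusted p = 0.0772). There the groups did not overlap for Ccnd1 and Cdk6, against 19.7% of all genes tested, and 2.02% passed the test. Ccnd1 did pass there in 8 of 30 alternatives, among them the replicate number as a block (edgeR adjusted p = 0.0255) and the fit without the libraries that stood apart (0.00220, with 4.95% of genes passing). Of fits that leave out 1 library, those without PO replicate 1 (0.0285) or 2i+LIF LP replicate 1 (0.0190) passed. The embryonic stem cell markers were low in 2i+LIF HP, where 2 of the 10 passed as lower than in CH+LIF HP, 2 as lower than in LIF HP and 2 as lower than in 2i+LIF LP, beside 2.02%, 3.78% and 3.67% of all genes. Of the 10, 7 passed as lower than in PO, beside 10.6% of all genes. Their part in the Ccnd1 and Ccnd3 levels of 2i+LIF HP was not tested.

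At LP the spread of Ccnd1 was wide in 2i+LIF, at 323, 117 and 159 CPM. The first of these is the Gm42418-rich library, which also had the lowest Ccnd3 and Cdk4 of its group. CH+LIF LP (83.3, 66.0 and 94.2 CPM) lay below all 3, and LIF LP (117, 65.7 and 88.0 CPM) reached their lower edge. Over all genes tested, 12.3% did not overlap when these first groups were compared. No Ccnd1 comparison among LP media passed, and between CH+LIF and 2i+LIF at that passage label no gene did (0 called by edgeR, with 950 at an unadjusted p under 0.05). In 2i+LIF PO the levels were 221, 87.3 and 110 CPM, and the high one is the mitochondria-rich library. With all libraries 2i+LIF HP lay above PO by 0.65 on the log2 scale, which did not pass (edgeR adjusted p = 0.272, with 10.6% of genes passing). Without the pair that stood apart it lay above PO by 1.15 (edgeR adjusted p = 0.00885), in a fit where 9.4% of all pairwise tests passed. LIF HP lay below PO (log2 fold change -1.33 ± 0.39, edgeR adjusted p = 0.0250, with 12.3% of genes passing). That call rests on single libraries: without PO replicate 1 the change was -0.87 (edgeR adjusted p = 0.164), without LIF HP replicate 2 the adjusted p was 0.0945 and without LIF HP replicate 3 it was 0.0956. Ordered by mean, Ccnd1 ran from 218 ± 48.8 CPM (SD, n = 3) in 2i+LIF HP through 200 ± 109 in 2i+LIF LP, 139 ± 71.2 in PO, 90.2 ± 25.6 in LIF LP, 87.5 ± 10.3 in CH+LIF HP and 81.2 ± 14.2 in CH+LIF LP down to 55.0 ± 4.65 in LIF HP. Only the last neighbours in that order did not overlap. Over all media at HP together Ccnd1 differed (edgeR adjusted p = 0.00416, with 5.12% of genes passing), and it also differed among the 6 cultured groups (0.00186, 13.1%).

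**Figure D1:**
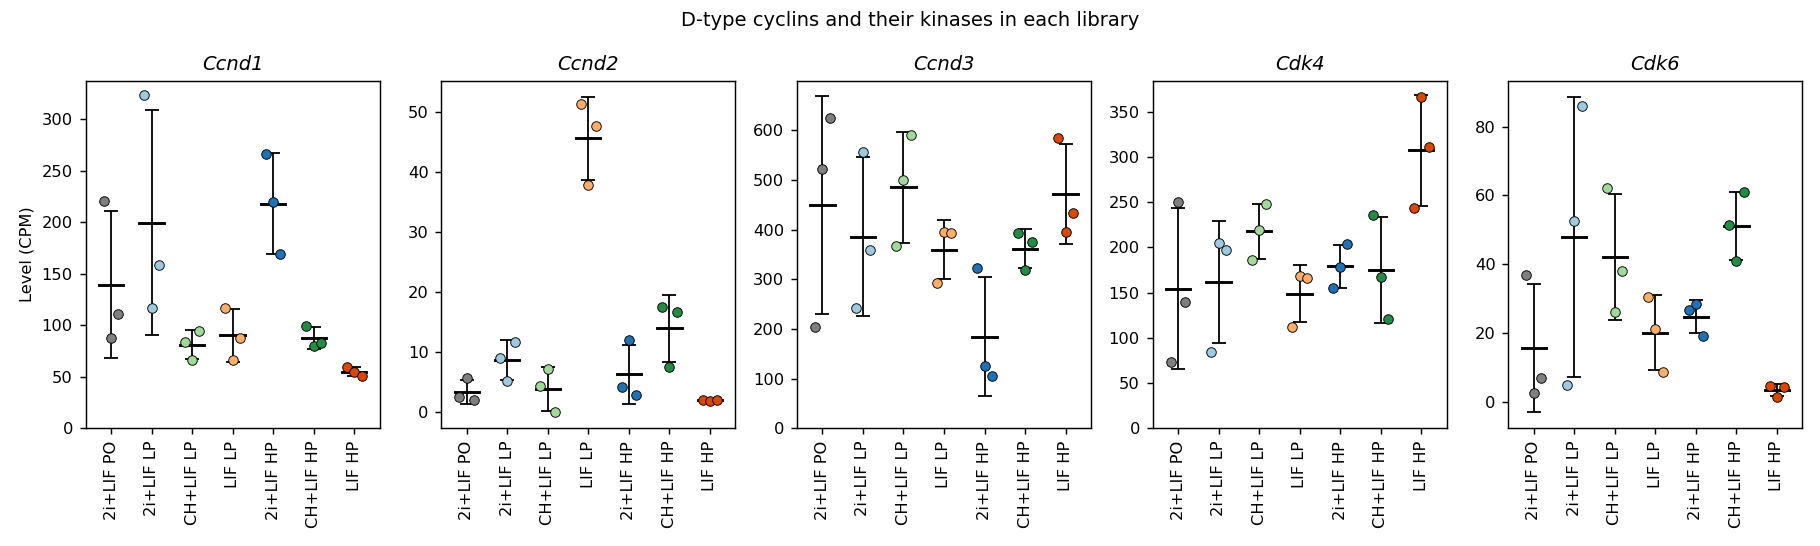
Level of each member in CPM (vertical axes, linear and separate for each gene) in the 7 groups, with 1 point per library, bars at the group mean and whiskers of 1 SD (n = 3). By mean Ccnd1 is highest in the 2i+LIF groups, though PO overlaps LIF LP. Ccnd2 stands at 37.8 to 51.2 CPM in LIF LP alone, and Cdk6 is at most 4.6 CPM in LIF HP.

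Ccnd2 encodes cyclin D2, which takes the same kinase partners and is known for its high level in neural progenitors. The gene (ENSMUSG00000000184) lies on chr6:127125162-127152193, minus strand. It was scarce except in LIF LP. There its level was 51.2, 37.8 and 47.6 CPM, from 57 to 99 counts per library. In CH+LIF LP it was 4.4, 7.3 and 0 CPM (3 counts in the last library would be 2.28 CPM). In 2i+LIF LP it was 9.1, 5.2 and 11.7 CPM. LIF LP therefore lay above every other LP library, and 14.2% and 15.6% of genes tested likewise did not overlap with CH+LIF LP and with 2i+LIF LP. In LIF LP against CH+LIF LP Ccnd2 rose by 3.48 ± 0.66 on the log2 scale (edgeR adjusted p = 0.0311). Only 0.047% of genes tested passed that comparison, 5 genes, and Ccnd2 was the 1 gene among them that was higher. The call was lost when any of the 6 libraries compared was left out, with edgeR adjusted p from 0.0517 to 0.205 and log2 fold changes from 2.99 to 4.21. Against 2i+LIF LP the rise of 2.40 ± 0.61 did not pass (edgeR adjusted p = 0.0799, with 0.489% of genes passing). It passed in 4 of 30 alternatives: without CH+LIF LP replicate 3 (0.0286), with DESeq2 (0.00660), over all genes with at least 1 count (0.00619) and with limma-voom (0.00675). Over all media at LP Ccnd2 differed (edgeR adjusted p = 0.00814, with 0.376% of genes passing), though not without LIF LP replicate 1 (0.0644).

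At HP the pattern across media was another. Over all media at HP Ccnd2 did not pass (edgeR adjusted p = 0.0607, with 5.12% of genes passing), though it did in 8 of 29 alternatives. LIF HP held 2.1, 1.8 and 2.1 CPM, from 2 to 4 counts per library, while CH+LIF HP held 17.5, 7.6 and 16.8 CPM and 2i+LIF HP 4.2, 12.0 and 2.9 CPM. LIF HP was thus the lowest group and CH+LIF HP the highest by mean. In LIF HP against LIF LP Ccnd2 fell 22.3-fold (log2 fold change -4.48 ± 0.73, edgeR adjusted p = 0.000414), where 9.96% of genes passed. In CH+LIF the change from LP to HP was 1.76 ± 0.66 (edgeR adjusted p = 0.716, with 0.0094% of genes passing), and in 2i+LIF -0.39 ± 0.64 (0.813, 3.67%). Set against CH+LIF, the LIF change was lower by a log2 difference of -6.24 ± 0.98 (interaction, edgeR adjusted p = 0.00337, with 0.423% of genes passing). It was the 1 interaction of 15 tested for the members that passed, and it held in all 29 alternatives. The count became 2 without PO replicate 1 or without CH+LIF LP replicate 3, as the difference from 2i+LIF then passed too (edgeR adjusted p = 0.0421 and 0.0369). Its difference from 2i+LIF was -4.09 ± 0.97 and did not pass (edgeR adjusted p = 0.0719, with 0.15% of genes passing), and between CH+LIF and 2i+LIF 0.0188% of genes passed and no member did. LIF HP against CH+LIF HP gave -2.76 ± 0.74 and also missed the threshold (edgeR adjusted p = 0.0552), where 1.47% of genes passed. Passing without 1 library among PO replicates 1 and 2, 2i+LIF LP replicate 1, CH+LIF LP replicate 3 and 2i+LIF HP replicates 2 and 3 (edgeR adjusted p from 0.0257 to 0.0499) shows how near the threshold it lay, and it passed in 11 of 30 alternatives in all.

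In 2i+LIF PO Ccnd2 was at 2.6, 5.8 and 2.0 CPM, so LIF LP lay above PO by 3.67 ± 0.64 (edgeR adjusted p = 0.000569, with 12% of genes passing). By mean the order was LIF LP (45.6 ± 6.92 CPM, SD, n = 3), CH+LIF HP (14.0 ± 5.50), 2i+LIF LP (8.68 ± 3.31), 2i+LIF HP (6.35 ± 4.93), CH+LIF LP (3.87 ± 3.66), PO (3.46 ± 2.01) and LIF HP (1.99 ± 0.123). Only LIF LP and its neighbour did not overlap. Among the 6 cultured groups Ccnd2 differed with an edgeR adjusted p of 0.000172. The summed neural ectoderm markers were also high in LIF LP. Of the 4 tested, 0 passed against CH+LIF LP or against 2i+LIF LP, beside 0.047% and 0.489% of all genes. Against PO 3 of 4 passed as higher, beside 12% of all genes. The 8 markers summed to 191 to 209 CPM in LIF LP, 125 to 138 in CH+LIF LP and 89.9 to 147.4 in LIF HP. The sum was 58.7 to 59.7 in CH+LIF HP, where the mean of Ccnd2 was the next highest. The neural factor Sox1 was at 53.4, 53.1 and 39.4 CPM in LIF LP and at most 33.4 CPM elsewhere. Over all media at LP Sox1 did not pass (edgeR adjusted p = 0.288). 2i+LIF LP reached a neural sum of 253 CPM in a library with Ccnd2 at most 11.7 CPM, and Pax3, Neurog2 and Olig3 were at 0 in all LIF LP libraries. The part of such cells in the Ccnd2 level was not tested.

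Ccnd3 encodes cyclin D3, which binds the same kinases and is known for its role in blood cell proliferation. The gene (ENSMUSG00000034165) lies on chr17:47505051-47599691, plus strand. It had the most counts of the D cyclins, 16455 over all libraries against 4945 for Ccnd1 and 459 for Ccnd2. RefSeq (GRCm38.p6) lists a pair of start windows, each from 250 bases before to 50 after a start, and both are shown because either could feed the Ccnd3 level. Capitals mark the GC box GGGCGG on either strand and, in the second window, the core TGACGT of the cyclic AMP response element.
Ccnd3, chr17:47504801-47505100, plus strand: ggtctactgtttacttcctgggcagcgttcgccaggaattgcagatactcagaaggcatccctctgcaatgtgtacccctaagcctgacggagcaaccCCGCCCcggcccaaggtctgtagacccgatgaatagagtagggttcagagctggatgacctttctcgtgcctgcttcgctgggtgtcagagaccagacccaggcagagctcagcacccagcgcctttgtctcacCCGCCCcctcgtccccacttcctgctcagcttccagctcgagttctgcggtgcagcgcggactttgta
Ccnd3, chr17:47593217-47593516, plus strand: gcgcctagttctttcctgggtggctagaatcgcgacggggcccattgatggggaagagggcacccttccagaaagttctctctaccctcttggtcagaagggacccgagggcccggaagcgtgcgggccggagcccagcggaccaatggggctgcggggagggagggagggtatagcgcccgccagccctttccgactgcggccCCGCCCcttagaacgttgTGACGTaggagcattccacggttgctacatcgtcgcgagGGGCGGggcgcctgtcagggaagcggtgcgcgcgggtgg
Each window holds 2 GC boxes, a motif found in 35.7% of 32851 RefSeq promoter windows. TGACGT is found in 7.51% of them.

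Ccnd3 was lowest in 2i+LIF HP, at 323, 126 and 104 CPM. The other HP groups lay higher, at 393, 318 and 374 CPM in CH+LIF HP and at 585, 395 and 433 CPM in LIF HP. LIF HP lay above both other groups without overlap, while CH+LIF HP met the top of 2i+LIF HP. LIF HP against 2i+LIF HP gave a log2 difference of 1.35 ± 0.43 that missed the threshold (edgeR adjusted p = 0.0768). Leaving out a single library brought it under the threshold: 2i+LIF HP replicate 1 (0.0152), PO replicate 1 (0.0326) or 2i+LIF LP replicate 1 (0.0457). Without the first of these the log2 difference was 2.03. In all, 7 of 30 alternatives passed. The smallest adjusted p for Ccnd3 was 0.0533 in 2i+LIF HP against PO (log2 difference -1.28 by edgeR, with 10.6% of genes passing). The same omissions gave 0.00621, 0.0101 and 0.0338, and the first of them a log2 difference of -1.97, and 8 of 30 alternatives passed in all. In PO the levels were 204, 521 and 624 CPM and in 2i+LIF LP 241, 557 and 359 CPM. The low value in each is the library that stood apart. CH+LIF LP spanned 368 to 589 CPM and LIF LP 292 to 394 CPM. By mean the order was CH+LIF LP (485 ± 111 CPM, SD, n = 3), LIF HP (471 ± 100), PO (450 ± 219), 2i+LIF LP (386 ± 159), CH+LIF HP (361 ± 39.0), LIF LP (360 ± 58.6) and 2i+LIF HP (185 ± 121), and all neighbours overlapped.

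Per length, the balance of the D cyclins tilted from Ccnd3 to Ccnd1 in 2i+LIF HP. The share of each cyclin was taken in the summed CPM per kilobase of exon, with exon lengths of 4709, 9409 and 8775 bases for Ccnd1, Ccnd2 and Ccnd3. These shares are descriptions without a test, and whether reads covered whole transcripts is not given in the sources used here. Ccnd1 held 69.9 ± 8.35% (SD, n = 3) in 2i+LIF HP and 18.1 ± 2.26% in LIF HP, with ranges of 60.3 to 74.9% and 16.0 to 20.5%. Ccnd3 held 29.0 ± 8.90% and 81.6 ± 2.30% in the same groups. CH+LIF HP lay between, with Ccnd1 at 30.4 ± 1.68%. On the log2 scale the ratio of Ccnd1 to Ccnd3 per kilobase was 1.30 ± 0.59 in 2i+LIF HP and -2.18 ± 0.22 in LIF HP. At LP the Ccnd1 share was 47.7 ± 21.6% in 2i+LIF, 24.0 ± 5.03% in CH+LIF and 29.5 ± 8.65% in LIF, and in PO it was 38.3 ± 24.5%. Without PO replicate 1 the PO share was 24.2%. Ccnd1 was the most abundant D cyclin per length in 5 libraries: all 3 of 2i+LIF HP and the pair that stood apart. Ccnd3 led in the other 16 and Ccnd2 in 0. With the longest transcript, or with no division by length, Ccnd1 led in 4 libraries. The lead turned in 2i+LIF HP replicate 1, where the Ccnd1 share was 60.3% by exon union and 45.7% by longest transcript. The Ccnd2 share was 7.45 ± 1.09% in LIF LP (6.39 to 8.57%) and at most 2.87% in any other library. Dividing by the longest transcript instead of the exon union lowered the Ccnd1 share to 56.9% in 2i+LIF HP and 10.9% in LIF HP.

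**Figure D2:**
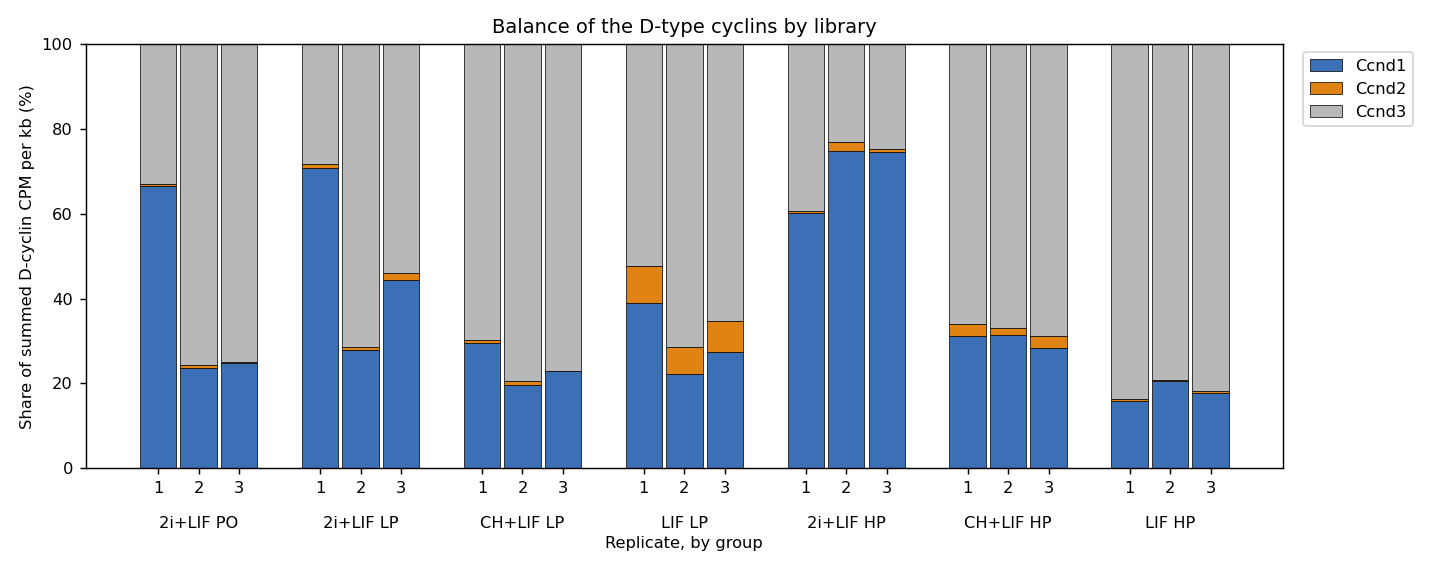
Share of each D cyclin in their summed CPM per kilobase of exon (vertical axis, percent) in each of the 21 libraries, ordered by group. Ccnd1 fills 60.3 to 74.9% of the 2i+LIF HP bars and 16.0 to 20.5% of the LIF HP bars, and Ccnd2 is visible mainly in LIF LP.

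Cdk4 encodes the more abundant of the catalytic partners. The gene (ENSMUSG00000006728) lies on chr10:127063534-127067920, plus strand. Cdk6 encodes the other kinase, which shares the D cyclins and the retinoblastoma substrate. It (ENSMUSG00000040274) lies on chr5:3341485-3531008, plus strand. The RefSeq promoter windows of both (GRCm38.p6) are shown because the kinases differed in where they were low. Capitals mark CACGTG, the E-box bound by Myc, and the GC box GGGCGG. They also mark the TCF/LEF motif CTTTGAT, here as its reverse complement, and the TATA box TATAAA.
Cdk4, chr10:127063285-127063584, plus strand: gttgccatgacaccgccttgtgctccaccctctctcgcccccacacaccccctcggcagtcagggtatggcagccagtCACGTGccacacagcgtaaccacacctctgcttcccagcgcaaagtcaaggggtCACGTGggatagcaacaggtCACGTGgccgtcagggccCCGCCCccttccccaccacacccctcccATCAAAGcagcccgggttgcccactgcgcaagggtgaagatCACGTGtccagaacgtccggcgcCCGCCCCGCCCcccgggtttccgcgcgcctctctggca
Cdk6, chr5:3343643-3343942, plus strand: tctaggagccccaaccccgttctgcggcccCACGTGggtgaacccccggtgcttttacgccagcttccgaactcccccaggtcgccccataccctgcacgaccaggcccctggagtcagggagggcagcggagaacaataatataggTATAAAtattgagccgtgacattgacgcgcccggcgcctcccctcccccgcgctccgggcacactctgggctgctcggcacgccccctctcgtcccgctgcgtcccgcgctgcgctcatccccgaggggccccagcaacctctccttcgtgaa
CACGTG occurs 4 times in the Cdk4 window and 1 time in the Cdk6 window, and 7.15% of all windows hold it. GGGCGG occurs 3 times in Cdk4, with 1 overlapping pair, and 0 times in Cdk6. CTTTGAT occurs 1 time in Cdk4 (3.73% of windows) and TATAAA 1 time in Cdk6 (13.6%). The motifs TTTNGCGC (E2F), TGANTCA (AP-1), CCGGAAGT (ETS) and TTCNNNGAA (STAT) were searched on both strands and had 0 matches in the 4 windows of Ccnd3, Cdk4 and Cdk6. A match is a match of letters only.

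Cdk4 was highest in LIF HP, at 244, 366 and 311 CPM. In the other HP groups it was 236, 167 and 120 CPM with CH+LIF and 155.2, 178 and 203 CPM with 2i+LIF. LIF LP held 112, 168 and 166 CPM. LIF HP overlapped with none of these groups. The difference from LIF LP was 1.05 ± 0.40 on the log2 scale, which did not pass (edgeR adjusted p = 0.0884). It did in 4 of 30 alternatives, of which 1 left out a single library, PO replicate 1 (0.0459). The difference from PO was 0.99 and did not pass either (edgeR adjusted p = 0.0963). It passed in 2 of 30 alternatives, without PO replicate 2 (0.0207) and with limma-voom sample quality weights (0.0165). That log2 difference was 1.49 without PO replicate 2 and 0.63 without PO replicate 1. In PO the levels were 73.3, 250 and 140 CPM and in 2i+LIF LP 84.2, 205 and 197 CPM, again lowest in the libraries that stood apart. CH+LIF LP held 186 to 248 CPM. By mean the groups ran from 307 ± 61.4 CPM (SD, n = 3) in LIF HP through 218 ± 30.8 for CH+LIF LP, 179 ± 24.0 for 2i+LIF HP, 175 ± 58.3 in CH+LIF HP, 162 ± 67.5 in 2i+LIF LP and 154.4 ± 89.2 in PO to 148.8 ± 31.5 in LIF LP, with every pair of neighbours overlapping.

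Cdk6 was nearly lost in LIF HP. Its level there was 4.6, 1.2 and 4.1 CPM, from 9, 2 and 4 counts. In CH+LIF HP it was 51.3, 41.0 and 60.9 CPM, and in 2i+LIF HP 26.5, 28.3 and 19.2 CPM. None of these 3 groups overlapped. In LIF HP against CH+LIF HP Cdk6 fell 15.2-fold (log2 fold change -3.92 ± 0.87, edgeR adjusted p = 0.0184). That call depended on single libraries: it was lost without CH+LIF HP replicate 1 (0.0577) or 3 (0.0680), and without LIF HP replicate 1 (0.0598), 2 (0.137) or 3 (0.0737), with log2 fold changes from -4.39 to -3.52. Against 2i+LIF HP the difference of -2.89 ± 0.87 did not pass (edgeR adjusted p = 0.0588), nor did that of -2.57 ± 0.87 from LIF LP (0.0584). With the replicate block both passed (edgeR adjusted p = 0.0394 and 0.0454), as they did in 10 and 11 of 30 alternatives in all. Among these were fits without PO replicate 1 or 2 or without 2i+LIF LP replicate 1 or 3 (edgeR adjusted p from 0.0140 to 0.0464), and for LIF LP the fit without its replicate 3 (0.0498). Among media at HP Cdk6 differed (edgeR adjusted p = 0.0190), as it did among the 6 cultured groups (0.0247). Neither passed without LIF HP replicate 1, 2 or 3, with edgeR adjusted p of 0.0502, 0.106 and 0.0608 for the media at HP and of 0.0637, 0.114 and 0.0791 for the 6 groups.

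The libraries that stood apart bear on Cdk6 more than on any other member. In PO it was at 36.9, 2.6 and 7.0 CPM, high in the mitochondria-rich library. In 2i+LIF LP it was at 4.9, 52.5 and 86.1 CPM, low in the Gm42418-rich library, which also held the ERK target Dusp6 at 0.701 CPM against 34.4 and 26.3 in the other replicates. With all libraries no Cdk6 comparison against PO passed. The log2 difference was 1.71 ± 0.71 in 2i+LIF LP (edgeR adjusted p = 0.156, with 5.06% of genes passing), 1.52 ± 0.71 in CH+LIF LP (0.191, 8.31%) and 1.79 ± 0.72 in CH+LIF HP (0.134, 5.82%). Without that pair, which leaves 2 libraries each in PO and 2i+LIF LP, 9 of the 15 Cdk6 comparisons passed. Cdk6 then lay above PO by 3.82 ± 0.55 in 2i+LIF LP (edgeR adjusted p = 4.3e-05, with 9.89% of genes passing), by 3.09 in CH+LIF LP (0.000226, 13.1%) and by 3.37 in CH+LIF HP (0.000106, 11.8%). LIF HP lay below CH+LIF HP (edgeR adjusted p = 1.3e-05, 6.92%), 2i+LIF HP (0.000549, 13%) and LIF LP (0.00101, 21.6%). CH+LIF LP spanned 26.0 to 62.0 CPM and LIF LP 8.7 to 30.3 CPM. By mean the order was CH+LIF HP (51.1 ± 9.95 CPM, SD, n = 3), 2i+LIF LP (47.8 ± 40.8), CH+LIF LP (42.0 ± 18.3), 2i+LIF HP (24.7 ± 4.85), LIF LP (20.1 ± 10.9), PO (15.5 ± 18.7) and LIF HP (3.33 ± 1.84), and all neighbours overlapped. Per kilobase of exon, Cdk6 made up 0.440, 0.0780 and 0.307% of Cdk4 plus Cdk6 in the LIF HP libraries. PO replicates 2 and 3 were similarly low, at 0.242 and 1.15%, while the mitochondria-rich PO replicate 1 was at 10.5%. By group mean the share was 3.17 to 6.90% in the other 5 groups. Among their single libraries LIF LP replicate 3 was at 1.20% and 2i+LIF LP replicate 1 at 1.34%.

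**Figure D3:**
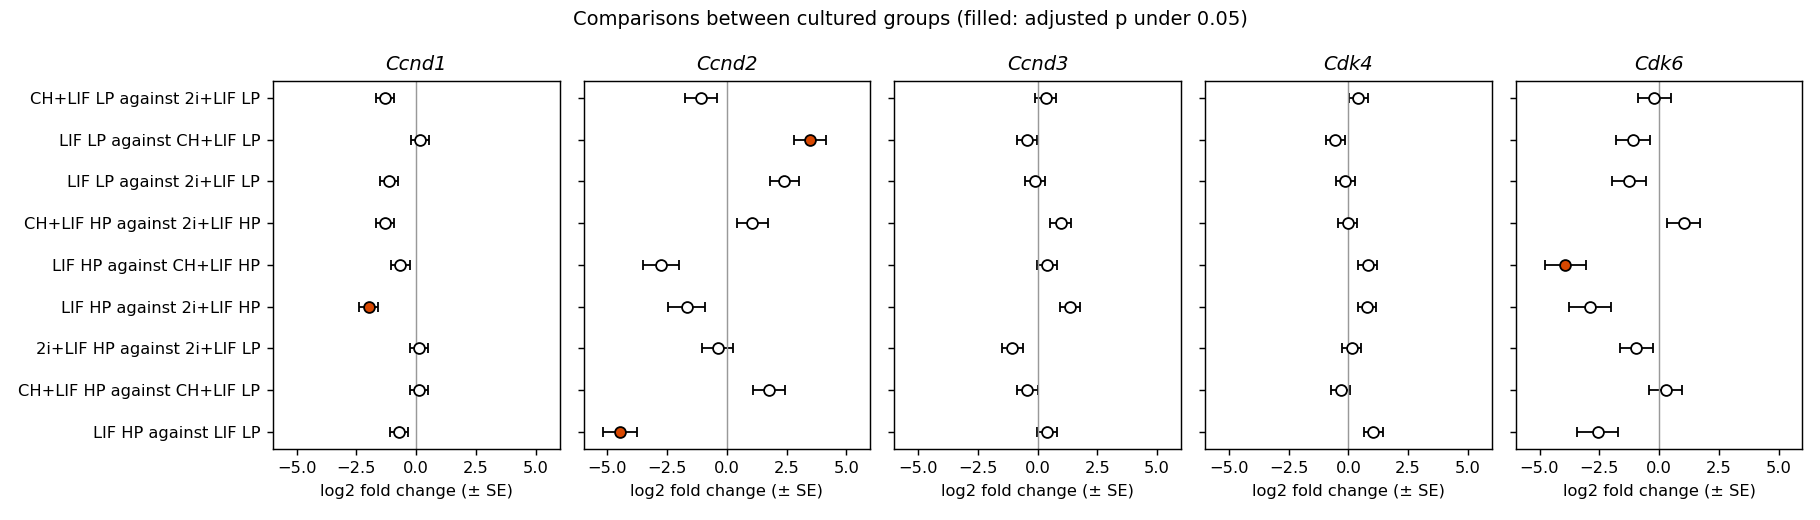
Log2 fold change with its SE (horizontal axes) of each member in the comparisons between cultured groups (rows); filled points have an edgeR adjusted p under 0.05. The filled points are Ccnd1 in LIF HP against 2i+LIF HP, Ccnd2 in LIF LP against CH+LIF LP and in LIF HP against LIF LP, and Cdk6 in LIF HP against CH+LIF HP.

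For the other genes of the pathway the counts lay near the share over all genes. Of 56 listed genes (8 lists: INK4 inhibitors, CIP/KIP inhibitors, pocket proteins, E2F and DP factors, later cyclins and kinases, CDK activation, D-cyclin turnover and E2F targets) 54 were tested. Among media at HP 4 of the 54 differed (Cdkn1a, Orc1, Usp2 and Cdc25a), and among the 6 cultured groups 7 did, beside the 5.12% and 13.1% of all genes given for these tests. Cdkn1a, the inhibitor p21, was the pathway gene that passed most often. It was at 503, 414 and 378 CPM in LIF HP, 98.6, 135 and 75.4 CPM in CH+LIF HP, 277, 268 and 259 CPM for 2i+LIF HP and 145.4, 142.1 and 171 CPM in LIF LP. In LIF HP Cdkn1a rose by 2.07 ± 0.37 against CH+LIF HP (edgeR adjusted p = 0.00394) and by 1.50 ± 0.36 against LIF LP (0.0105), and in CH+LIF HP it fell by 1.38 ± 0.36 against 2i+LIF HP (0.0426). Its change from LP to HP in LIF exceeded that in CH+LIF by 2.61 ± 0.51 (edgeR adjusted p = 0.0210).

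In LIF HP against LIF LP 5 of the 54 pathway genes passed, 2 higher and 3 lower, where 9.96% of all genes passed, with a median log2 fold change of -0.15 beside 0.01 over all genes tested. Apart from Cdkn1a, the higher gene was Cdkn2a, whose locus makes the INK4 inhibitor p16 and the separate protein ARF. Its log2 fold change was 2.28 (edgeR adjusted p = 0.00791), at 57.7, 107 and 73.2 CPM in LIF HP. The lower genes were Rb1, the retinoblastoma protein (-1.83, edgeR adjusted p = 0.0252), E2f8, a repressor of the E2F family (-1.75, 0.0168), and Rrm1, a subunit of ribonucleotide reductase (-1.04, 0.0258). Rrm1 was 1 of 16 E2F target genes listed, and the others did not pass. In LIF HP against 2i+LIF HP 3 of 54 passed, where 3.78% of all genes did. Cdc25a, the phosphatase that activates CDK2, was lower (-1.38, edgeR adjusted p = 0.0291), as was Usp2, a deubiquitinase of cyclin D1 (-1.35, 0.0486), and Orc1 of the origin recognition complex was higher (1.45, 0.0274). The median over the 54 was -0.19, beside -0.02 over all genes tested. In LIF LP against CH+LIF LP, where Ccnd2 rose, 0 of 54 passed by edgeR and 2 had an unadjusted p under 0.05, where 0.047% of all genes passed.

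**Figure D4:**
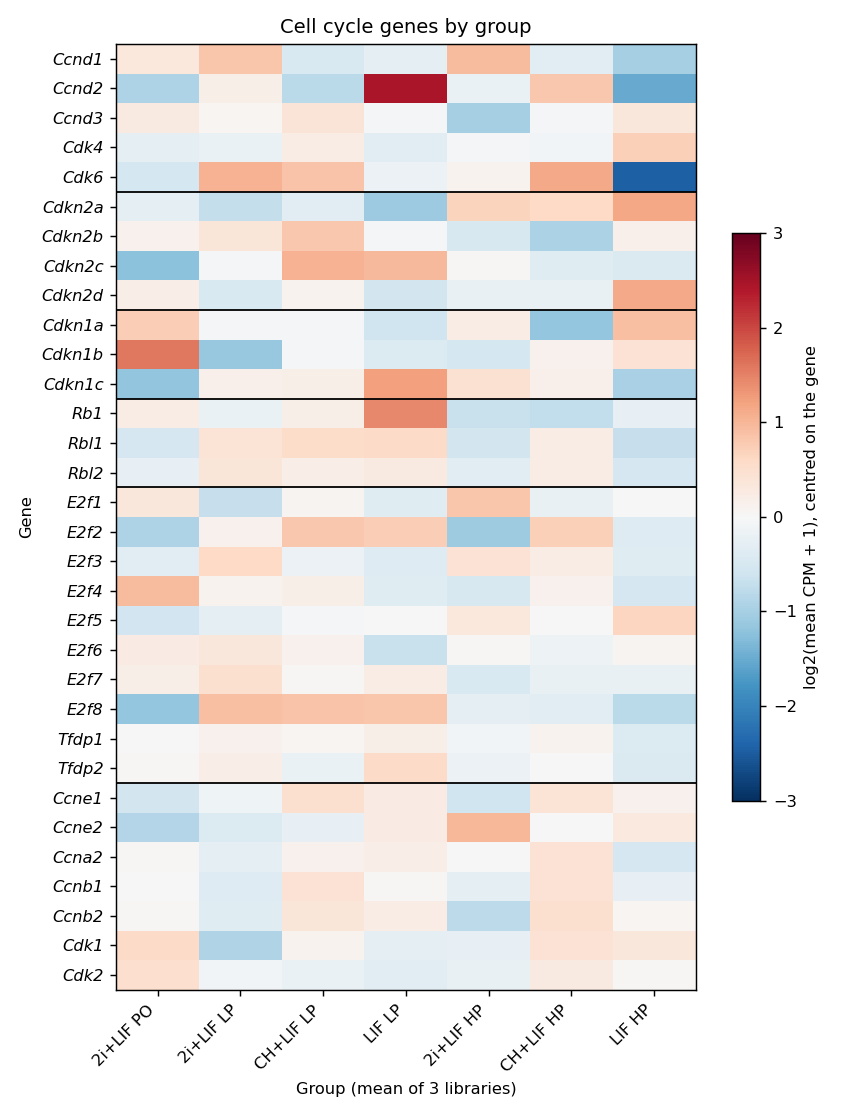
Level of the members and the listed cell cycle genes (rows) in the 7 groups (columns, mean of 3 libraries), as log2(mean CPM + 1) centred on each gene; colour gives the difference from the gene's own mean. Ccnd2 is high in LIF LP and Cdk6 low in LIF HP, while Cdkn1a is at its lowest in CH+LIF HP and its highest in LIF HP.

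Wnt target genes stood high in 2i+LIF HP, where Ccnd1 was highest. The 10 listed genes summed to 269, 611 and 809 CPM in the 2i+LIF HP libraries and to at most 119 CPM in any other library. In 2i+LIF LP, with Ccnd1 at 117 to 323 CPM, that sum was 33.0 to 119 CPM, above CH+LIF LP (10.2 to 22.02 CPM) and LIF LP (6.25 to 11.6 CPM), both lower in Ccnd1 by mean. In PO it was 22.2 to 70.7 CPM and in CH+LIF HP 35.0 to 72.0 CPM. In LIF HP, lowest in Ccnd1, it was 71.1 to 85.6 CPM. The part of either signalling gene set in the members' levels was not tested. Markers of other lineages had the following levels. The 8 primitive endoderm markers summed to at most 73.6 CPM, the 8 mesendoderm markers to at most 49.1 CPM and the 8 fibroblast markers to at most 36.9 CPM. The 8 trophoblast markers summed to 132 to 180 CPM in LIF HP, 33.9 to 67.2 in LIF LP, 43.4 to 60.2 in CH+LIF HP and 125 to 147.2 in 2i+LIF HP, 63.2 to 73.6 in 2i+LIF LP and 41.2 to 89.6 in CH+LIF LP, and reached 188 CPM in PO. Their defining gene Elf5 was at 0 everywhere. Of 4 tested, all 4 differed among the 6 cultured groups, beside 13.1% of all genes, and 1 passed in LIF HP against LIF LP, beside 9.96%. This sum was thus high in LIF HP, where Ccnd2 and Cdk6 were lowest, and likewise in PO and 2i+LIF HP. Ascl2 of the same list was at 0 in LIF HP. In LIF HP against 2i+LIF HP the 4 tested had a median log2 fold change of -2.05, and 1 passed as higher, beside 3.78% of all genes. The part of this sum in the Ccnd2 and Cdk6 levels was not tested.

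All members share genomic sequence with a neighbour on the opposite strand, and the strand setting of the counting is not given in the sources used here. If strand was not used in the counting, reads in overlapping exons cannot be assigned to the member or to its partner. Whether such reads were counted for either gene was not tested. Ccnd1 overlaps LTO1 over 1100 exon bases, Ccnd3 overlaps Bysl over 361 and Cdk4 overlaps Tspan31 over 641. Their counts over all libraries were 237, 2514 and 523, against 4945, 16455 and 7594 for the members. The partners of Ccnd2 and Cdk6 had at most 2 counts each.

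The genes whose log2 CPM followed each member most closely over the 21 libraries were taken from 7753 genes with a mean of at least 10 CPM, as a description. These points share libraries, groups and depth. For Ccnd1 they included Hnrnpul2 (r = 0.874) and Mgea5 (0.870), and for Ccnd2 Noct (0.787), Zfp729a (0.732) and Car2 (0.731). For Ccnd3 they were Aplp1 (0.872), Mogs (0.840) and Junb (0.834). Cdk4 was followed by Cox7a2 (0.934), Smdt1 (0.927) and Chchd2 (0.923), and Cdk6 by genes that included Nrp2 (0.856) and Sf3b3 (0.842). Few of the 15 genes found in this way, 3 for each member, are stable: 6 stayed among the nearest 3 over the 18 libraries without PO, and 4 without the pair of libraries that stood apart.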

How the data were processed

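The authors deposited, for each library, whole-number counts per Ensembl gene, not normalized. The submitters' processing notes name bcl2fastq, STAR 2.6.0a, HTSeq and the build mm10; annotation, strand setting and filters are not given in the sources used here. The 5 closing entries of each table (38.0 to 52.6% of all entries) stayed out of totals and tests. GENCODE M21 (GRCm38) supplied symbols and positions for 31011 of 31053 IDs. Exon unions gave lengths.

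All 21 libraries entered 1 edgeR 4.0.16 quasi-likelihood fit (R 4.3.3) with a coefficient per group, TMM scaling and filterByExpr, with 14 residual degrees of freedom. All tests were two-sided, and p-values were adjusted by Benjamini-Hochberg over 10643 genes in each of 15 pairwise contrasts, 3 interactions and 3 joint tests, at a threshold of 0.05. A prior count of 2 entered log2 CPM. The steps were tested on simulated data for LIF HP against CH+LIF HP. Of genes at 10 CPM or more, 54 of 75 changed 4-fold were called, and 69 of 73 changed 8-fold. Smaller changes were not simulated. The members and gene lists were chosen with earlier results of these data known; named genes were the members, list genes that passed and the 3 genes most like each member, some of which are not reported here. Alternatives were DESeq2 1.42.0, its size factors, no filter, thinning, a replicate block, limma 3.58.1 voom weights, fits of 2 groups, and left-out libraries. Same-numbered libraries deviated together in all 3 pairs (r of 0.397, 0.345 and 0.179) only for 2i+LIF LP against PO, where no member passed with or without the block.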

Additional observations from a re-analysis of the deposited data

Results flagged for a closer look

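The change of Ccnd2 from LP to HP differed between media. Between LIF and CH+LIF the difference of the log2 changes was -6.24 ± 0.98 (interaction term, edgeR adjusted p = 0.00337), with Ccnd2 lower at HP in LIF (-4.48) and at 1.76 in CH+LIF. All 3 LIF HP libraries lay below all 3 LIF LP libraries, a comparison in which 39.3% of all genes tested did not overlap in either direction. The change in CH+LIF did not pass by itself (edgeR adjusted p = 0.716). There the lowest HP library was at 7.6 CPM and the highest LP library at 7.3 CPM. The size ranged from -6.99 to -5.72 over 29 alternatives, with edgeR adjusted p of at most 0.0185.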

How the results depend on the processing

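Of 90 differences and interactions of the members, 20 changed direction in at least 1 alternative. None of the 20 passed with all libraries, where they were at most 0.52 in size on the log2 scale, and the values that turned had adjusted p of at least 0.50. The 6 pairwise calls, beside 5.03% of the tests over all genes, became 15 with DESeq2 (7.91% over all genes), 18 over all genes with at least 1 count (3.95%) and 25 with limma-voom sample quality weights (13.2%). They became 11 with fits of only the 2 groups compared (5.26%), 20 without 2i+LIF LP replicate 1 and 2i+LIF PO replicate 1 together (9.4%), and 4 to 16 with 1 library left out (3.47 to 7.29%). The 1 interaction call became 2 with DESeq2, 3 over all genes, 3 without that pair of libraries, 5 with limma-voom and 1 to 2 with 1 library left out. Ccnd1 in LIF HP against PO no longer passed without that pair (-0.85), in a fit of both groups alone (-1.32), or without PO replicate 1 (-0.87), LIF HP replicate 2 (-1.34) or LIF HP replicate 3 (-1.28); all fits with 1 library left out ranged from -1.60 to -0.87. Ccnd2 in LIF LP against CH+LIF LP no longer passed with counts thinned to the smallest library (3.04) or with 1 library left out (2.99 to 4.21). Cdk6 in LIF HP against CH+LIF HP ranged from -4.39 to -3.52 with 1 library left out. Fits without 1 library or without that pair gave edgeR adjusted p of 0.00172 to 0.0644 for Ccnd2 among media at LP, 1.7e-05 to 0.106 for Cdk6 among media at HP and 7.5e-06 to 0.114 for Cdk6 among the 6 cultured groups. The cause was not tested in any of these.

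With the replicate number as a block, 9 pairwise calls passed: the 6 above, Ccnd1 in CH+LIF HP compared with 2i+LIF HP (log2 fold change -1.31), and Cdk6 in LIF HP against 2i+LIF HP (-3.0) and against LIF LP (-2.62). The labels do not say that a number marks a shared culture or day, so the block rests on the number alone; it changed no other call. In LIF HP against 2i+LIF HP every library correlated best with its own number.

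The Ccnd1 share of the D cyclins moved with the length used. Without division by length it was 14.5% in CH+LIF LP, 18.4% in LIF LP, 55.8% in 2i+LIF HP, 18.9% in CH+LIF HP and 10.6% in LIF HP, and with the longest transcript 15.0%, 19.6%, 56.9%, 19.6% and 10.9%. Of the 15 genes most like the members, 6 remained over the 18 libraries without PO and 4 without the pair above. Depth limits Ccnd2 and Cdk6 most, with 2 to 4 and 2 to 9 counts per library in LIF HP.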
